A study of Homo sapiens with 4 samples.

Results

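Genes that carry, store and export iron, with the main copper protein of plasma, were followed in HepG2 cells given the plant biflavonoid isoginkgetin. The genes were chosen by name, as ceruloplasmin, the transferrin system, ferritin with its autophagy receptor, the iron exporter and its hormone: CP, TF, TFRC, TFR2, FTH1, FTL, NCOA4, SLC40A1, SLC11A2 and HAMP. Of these 10 genes 9 have a row among the 8727 genes of the authors' deposited table, and TFRC has none. HepG2 is an established cell line from a human liver tumour, called hepatoblastoma in the labels. It was sequenced as polyadenylated RNA in 2 libraries of cells given the solvent DMSO and 2 libraries of cells given 20 µM of isoginkgetin over 24 h, with no other agent or genetic change named in the labels. For each gene the table gives the normalized count averaged over all libraries, the log2 fold change, its standard error (SE, printed below after ±), and p-values before and after adjustment. It holds only genes with an adjusted p under 0.05, and it gives no value per library. The group in the numerator is not named. A positive log2 fold change is read below as higher with isoginkgetin, the usual order, and every direction would turn if the authors had used the other order. No label says that the replicates were separate cultures, so the p-values rest on library-to-library spread that may be technical. In RNA from whole cultures, fewer cells making a transcript and less transcript per cell cannot be told apart.

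Iron travels in plasma bound to transferrin, enters cells through transferrin receptors, is freed and reduced in endosomes and crosses into the cytosol through SLC11A2. Surplus iron is held inside shells of ferritin, built from a heavy chain that oxidises iron and a light chain that helps to store it, and the receptor NCOA4 takes ferritin to the autophagosome for breakdown in lysosomes. Iron leaves cells through ferroportin, encoded by SLC40A1, is oxidised by the copper enzyme ceruloplasmin and is loaded onto transferrin. The liver secretes hepcidin, the product of HAMP, which removes ferroportin from the cell surface. Iron regulatory proteins bind a small RNA hairpin, the iron-responsive element: in the 5′ UTR it blocks translation when iron is scarce, and in the 3′ UTR it protects the transcript from decay.

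The hairpins are shown because they divide the iron genes into those controlled at translation and those controlled at transcript stability. They were searched in GENCODE 29 transcripts as CNNNNNCAGTGN on the transcript strand, with the 5 bases before the loop able to pair with the 5 after it and a last loop base other than G. In each sequence, written 5′ to 3′ as DNA, capitals mark the loop.
FTH1, 5′ UTR: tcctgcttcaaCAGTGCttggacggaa
FTL, 5′ UTR: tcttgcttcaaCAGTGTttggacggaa
SLC40A1, 5′ UTR: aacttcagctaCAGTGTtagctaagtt
TFRC, 3′ UTR: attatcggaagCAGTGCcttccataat
The FTH1 and FTL elements share 25 of 27 bases, and each shares 13 of 27 with that of SLC40A1. TFRC has 4 different matches in its 3′ UTR, of which the one nearest the coding sequence is shown. TF has 1 match, in a 3′ UTR of a transcript model 20602 bases long. The same search finds a match in 212 of 19669 protein-coding genes (1.08%), and in 5 of the 10 genes described here. SLC11A2, whose longer transcripts are known for such an element, has no match to these letters and this pairing.

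Ferritin went one way and the rest of the set the other. In the authors' deposited table both ferritin chains were higher with isoginkgetin and the other 7 genes with a row were lower. Over all genes tested by the authors, 43.6% were called at an adjusted p under 0.05, with 22.4% higher and 21.1% lower. The 9 of 10 found here is a larger share, but all 9 genes have mean normalized counts of at least 603, 3 of them below and 6 above the table's median of 741, and how often genes of that level were called cannot be read from a table that holds called genes only. The median log2 fold change of the 9 genes was −0.51, against 0.21 over all 8727 rows of the authors' deposited table, of which 51.5% were higher. Fold changes as deposited were below 2-fold in 7 of the 9. CP and TFR2 were past 2-fold, both lower, where 13.7% of all genes tested were called at that size in either direction and 7.43% were lower. TFR2 passed it only just, at 2.01-fold. The 95% intervals of TFR2 (−1.29 to −0.72), FTH1 (0.56 to 1.11) and FTL (0.47 to 1.39) on the log2 scale include a 2-fold change. These 3 genes thus cannot be placed on either side of 2-fold with certainty.

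**Figure D1:**
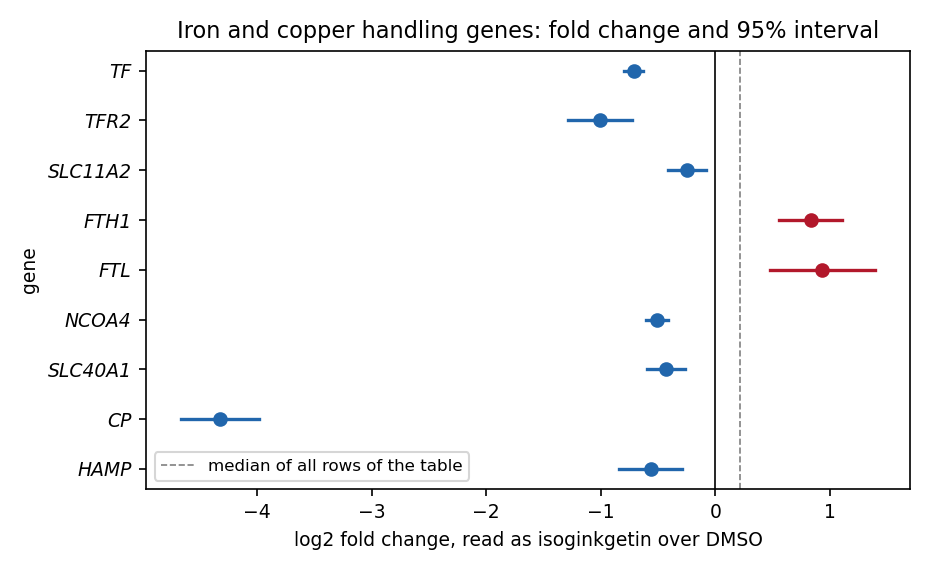
Log2 fold change (x axis, read as isoginkgetin over DMSO) of the 9 genes with a row, with bars for the 95% interval computed from the authors' SE; red is higher, blue lower, and the dashed line is the median of all rows (0.21). FTH1 and FTL lie to the right of 0 and CP lies far to the left at −4.33. No interval reaches 0, but only genes with an adjusted p under 0.05 have a row, which largely sets this in advance.

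Transferrin, the plasma iron carrier that hepatocytes secrete, was among the called genes with the highest counts, before any division by length. TF had a mean normalized count of 41803 per the authors' deposited table, which ranks 28 among its 8727 rows. Its log2 fold change there was −0.71 ± 0.04 (adjusted p 2.02e-62), a fall to 61.1% of the DMSO level. This was the most precise fold change of the set, and its 95% interval ran from −0.79 to −0.63. The GENCODE 29 model of TF overlaps SRPRB, a subunit of the signal recognition particle receptor, on the same strand. The gene spans, introns included, share 12608 bases. SRPRB went the other way per the authors' deposited table, with a log2 fold change of 1.55 ± 0.09 (adjusted p 6.51e-72) at a mean normalized count of 1851. Whether the annotation that the authors counted on holds the same overlap is unknown here.

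The transferrin receptors could be followed through TFR2 alone. TFRC, the receptor through which most cells take up iron, has no row, so its level, its direction and whether it was tested are not known here. TFR2, the receptor of hepatocytes that also acts as a sensor of iron-loaded transferrin, had a log2 fold change of −1.01 ± 0.14 (adjusted p 5.95e-12) per the authors' deposited table. That is 49.7% of the DMSO level, at a mean normalized count of 603. SLC11A2, the proton-coupled carrier DMT1 that moves iron out of endosomes, changed least of all. Its log2 fold change per the authors' deposited table was −0.25 ± 0.08 (adjusted p 0.00731), a fall to 84.2%, and it lost its call when the adjusted p had to be under 0.001.

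Both chains of ferritin rose by similar amounts. FTH1, the heavy chain with the iron-oxidising site, had a log2 fold change of 0.83 ± 0.14 (adjusted p 6.88e-09) per the authors' deposited table, and FTL, the light chain, of 0.93 ± 0.23 (adjusted p 7.37e-05). These are 1.78-fold and 1.91-fold. The 95% intervals, 0.56 to 1.11 for FTH1 and 0.47 to 1.39 for FTL, overlap over most of their length; a test between the chains cannot be made from the table. FTL had a mean normalized count of 191634, the rank 5 of all rows of the authors' deposited table, and FTH1 of 32059, the rank 42. With Bonferroni in place of the Benjamini-Hochberg adjustment FTH1 kept its call and FTL lost it.

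The ferritin estimates were far less precise than those of most other called genes at their level. Among the 85 genes over a mean normalized count of 20000 per the authors' deposited table, the SE of FTL was the second highest and that of FTH1 the third, against a median SE of 0.046. Among rows within 0.5 log2 units of their level, counting the gene itself, none had a larger SE than FTH1 (46 genes, 3.01 times the median) or FTL (4 genes, 4.79 times the median). Genes with a large SE and a modest change are called less often and then have no row. These ranks and medians thus hold among called genes only. Read as the SE of an unshrunken difference between groups of 2, these SEs would stand for a coefficient of variation between replicates of 9.80% for FTH1 and 16.4% for FTL, against 2.92% for TF. A DESeq2 fit draws the spread of a gene towards that of genes of like level. These figures are thus not the measured spread between libraries of each gene, and which libraries differed cannot be seen. GENCODE 29 names 25 pseudogenes of FTH1 and 16 of FTL, many of them close copies that can share reads with the genes, so both values are uncertain on that account too. FTH1P3 is the 1 of these pseudogenes with a row, at a mean normalized count of 34.3 and a log2 fold change of 2.42 ± 0.62 (adjusted p 3.01e-05) per the authors' deposited table. The gene span of FTH1 also overlaps that of BEST1, on the other strand, over 5798 bases in GENCODE 29, introns included. BEST1 has no row.

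**Figure D2:**
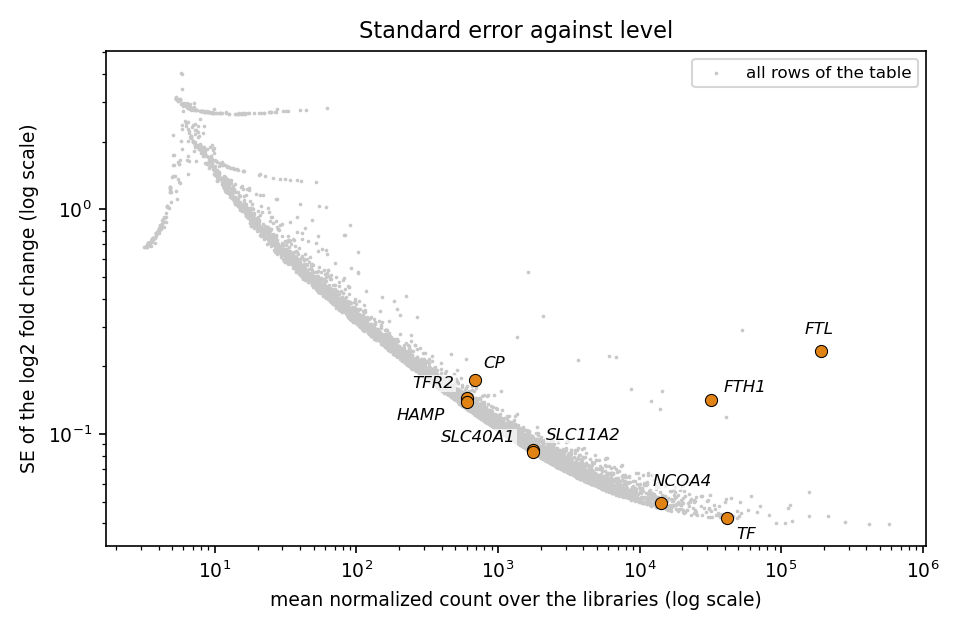
SE of the log2 fold change (y axis, log scale) against the mean normalized count over the libraries (x axis, log scale) for all 8727 rows (grey) and the 9 genes (orange). FTH1 (SE 0.14) and FTL (SE 0.23) stand well above the band of rows at their level, CP slightly above its band, and the other 6 lie within it. All rows are called genes, so uncalled genes of that level are not shown.

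NCOA4, the receptor that delivers ferritin to autophagosomes, fell while ferritin rose. Its log2 fold change was −0.51 ± 0.05 (adjusted p 6.62e-24) per the authors' deposited table, a fall to 70.2% of the DMSO level, at a mean normalized count of 14185. Its SE was close to the median of called genes at its level (0.96 times). HERC2, the ubiquitin ligase known to mark NCOA4 for degradation, was lower too, at −0.47 ± 0.10 per the authors' deposited table; it has partial copies elsewhere in the genome that may share its reads. Of 9 listed genes of iron storage, chaperoning and export beside the chosen ones, 2 have a row (22.2%, against 43.6% of all genes tested). They are HERC2, lower, and PCBP4, higher. Of the iron chaperone family, PCBP4 alone has a row, at 0.26 ± 0.08 per the authors' deposited table, while PCBP1 and PCBP2, which hand iron to ferritin, have none.

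The transcripts of SLC40A1 and CP, which act in iron exit, were both lower, and export itself was not measured. SLC40A1, ferroportin, had a log2 fold change of −0.43 ± 0.08 (adjusted p 1.16e-06) per the authors' deposited table, 74.1% of the DMSO level at a mean normalized count of 1765. CP, ceruloplasmin, the copper enzyme that oxidises the exported iron, fell most: its log2 fold change was −4.33 ± 0.17 (adjusted p 8.16e-136), the lowest but 22 among the 8727 rows of the authors' deposited table. That is a 20.1-fold fall, to 4.98% of the DMSO level, with a 95% interval of −4.67 to −3.99 on the log2 scale. The SE of CP was 1.36 times the median of called genes within 0.5 log2 units of its level. Of these 1530 genes 6 had a larger SE. The ferroxidases HEPH and HEPHL1, relatives of ceruloplasmin, have no row. CP and HPS3, a gene of lysosome-related organelles, lie on opposite strands of chromosome 3. Their gene spans, introns included, share 11323 bases in GENCODE 29. HPS3 was lower as well, at −1.78 ± 0.16 (adjusted p 5.05e-28) and a mean normalized count of 441 per the authors' deposited table. The library kit does not keep the strand, so reads from bases that are exonic in both genes could not be told apart. How many of the shared bases are exonic in both, and how much such reads contribute to these values, was not tested.

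The mean and the fold change together imply a level for each group, if the mean is taken as the average of groups of equal size and the fold change as a plain ratio. For CP these implied mean normalized counts were 1308 with DMSO and 65.2 with isoginkgetin, and for TFR2 806 and 401. Transferrin went from 51900 to 31706 and NCOA4 from 16665 to 11706 on the same scale. FTL went from 131671 to 251597 and FTH1 from 23060 to 41058. SLC40A1 and SLC11A2 lay close together, at 2027 and 1935 with DMSO and at 1502 and 1629 with isoginkgetin. With these implied values the order of TF and FTH1 turned, transferrin being the higher with DMSO and the ferritin heavy chain with isoginkgetin, and CP passed from above TFR2 and HAMP to below both. These orders are of counts, which grow with transcript length.

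**Figure D3:**
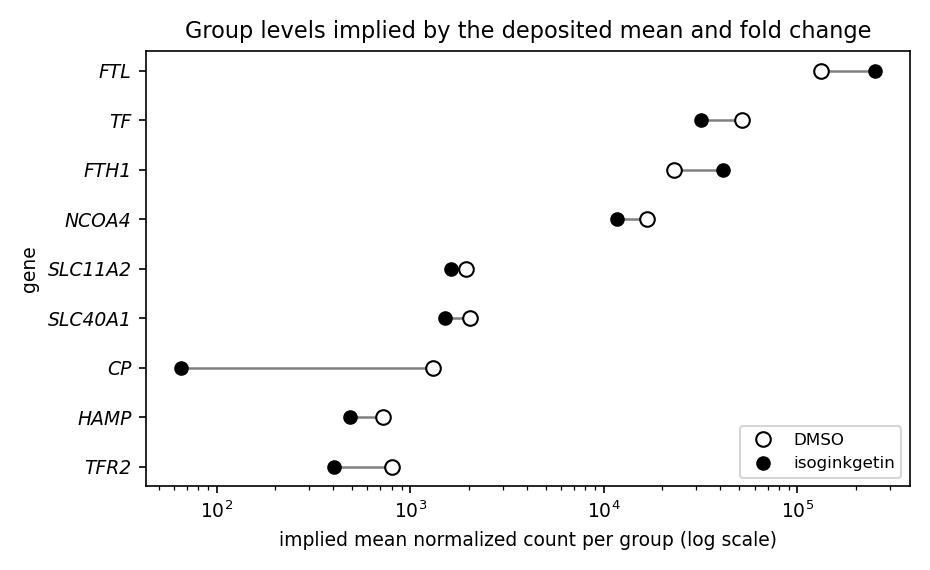
Mean normalized count per group (x axis, log scale) implied by the authors' mean and fold change for the 9 genes, open circles for DMSO and filled for isoginkgetin, with no error shown because no value per library is held. The span for CP, from 1308 to 65.2, is the widest, and FTL and FTH1 are the genes whose filled circle lies to the right.

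Levels can be set side by side between genes only per length. Per kilobase of coding sequence, the mean normalized count over the libraries was 365018 for FTL, 58395 for FTH1, 19963 for TF and 7275 for NCOA4. HAMP followed at 2394, then SLC11A2 at 1059 and SLC40A1 at 1030, and TFR2 at 251 and CP at 215 were lowest. Per kilobase of the longest principal transcript the order was the same except for 2 pairs: NCOA4 (6149) stood above TF (2029), whose annotated transcript is 20602 bases long, and SLC40A1 (513) above SLC11A2 (428). The TF model holds only 2094 coding bases, and which TF transcript gave the reads is not known. The place of TF in this second order therefore rests on the model chosen. Ferritin light chain headed both orders and ceruloplasmin closed them. The spread of these levels over libraries is not known, so neighbours in the order such as SLC11A2 and SLC40A1 cannot be said to differ.

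**Figure D4:**
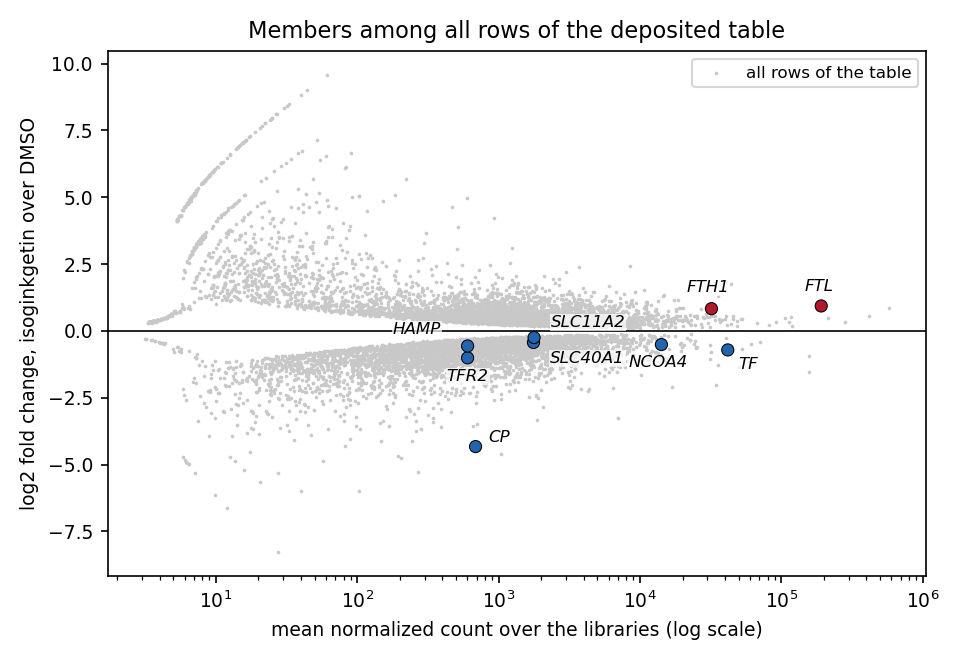
Log2 fold change (y axis) against mean normalized count over the libraries (x axis, log scale) for all 8727 rows (grey) and the 9 genes (red higher, blue lower). CP lies at the lower edge of the cloud at −4.33, and FTL, TF, FTH1 and NCOA4 lie at its abundant end.

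HAMP, the gene of hepcidin, was lower with a log2 fold change of −0.56 ± 0.14 (adjusted p 0.000112) per the authors' deposited table. This is 67.6% of the DMSO level at a mean normalized count of 603, and the call was lost with Bonferroni. Hepcidin is switched on by BMP signals through SMAD proteins and by interleukin 6 through STAT3. The 250 bases before its start are shown for the letters of both routes, from RefSeq on GRCh38.p14, plus strand, chr19:35282278-35282527, with the matches to GGCGCC and TTCNNNGAA in capitals.
HAMP: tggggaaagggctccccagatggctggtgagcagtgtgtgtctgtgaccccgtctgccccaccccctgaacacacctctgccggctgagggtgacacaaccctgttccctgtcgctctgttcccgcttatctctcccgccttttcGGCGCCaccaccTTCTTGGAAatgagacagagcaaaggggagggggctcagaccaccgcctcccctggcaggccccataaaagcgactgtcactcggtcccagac
GGCGCC, the core of the BMP response element, begins 105 bases before the start, and TTCNNNGAA, the letters of a STAT site, begins 93 bases before it. Searched on both strands, GGCGCC occurs in 19.2% and TTCNNNGAA in 7.66% of all 35116 promoter windows of 300 bases in the RefSeq table. The windows run from 250 bases before to 50 after a start, and 7 of the 10 genes have at least 1. Beside HAMP, GGCGCC is also in both windows of TF and in the TFRC window. TTCNNNGAA is in no other window of the chosen genes. ACGTG, the core of the hypoxia response element, occurs on either strand in the windows of FTL and TFRC, in 1 of the 2 windows of TF and in 21.4% of all windows. TGACNNNGC, the core of the antioxidant response element known from ferritin genes, is not in the FTL window and occurs in 1 of the 2 NCOA4 windows and in 13.3% of all. A match describes the letters and does not show that a factor was bound.

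Genes of the hepcidin pathway went both ways. Of 25 listed genes beside HAMP and TFR2, 16 have a row (64.0%, where 43.6% of all genes tested were called), 6 higher and 10 lower. Their median was −0.30 on the log2 scale, against 0.21 over all rows of the authors' deposited table. HFE, the partner of transferrin receptors whose loss causes hereditary hemochromatosis, was at −1.39 ± 0.18 and NEO1, which binds the BMP co-receptor hemojuvelin, at −1.05 ± 0.15 per the authors' deposited table. SMAD6, an inhibitor that BMP signals induce, stood at −1.68 ± 0.16 (adjusted p 8.32e-25) and ID1, a standard BMP target, at −0.93 ± 0.06 (adjusted p 1.56e-58) per the authors' deposited table. The secreted liver protein FGL1 was at −0.63 ± 0.07 per the authors' deposited table. The signal carriers SMAD1, SMAD5 and SMAD4 had log2 fold changes of 0.73 ± 0.16, 0.49 ± 0.08 and 0.46 ± 0.10 per the authors' deposited table. Of the receptors for BMP and related ligands, ACVR2A stood at 0.37 ± 0.14, while BMPR1A at −0.49 ± 0.09 (adjusted p 4.45e-07), ACVR1 at −0.48 ± 0.16 and BMPR2 at −0.28 ± 0.11 were lower per the authors' deposited table. IL6R, the receptor for interleukin 6, at −0.27 ± 0.11 and SMAD7, an inhibitor of the pathway, at −0.32 ± 0.12 were lower too per the authors' deposited table. BMPR1A, ACVR1, BMPR2, IL6R and SMAD7 were named after their values were seen. FURIN, the protease that trims the hepcidin precursor, was at 0.32 ± 0.06 per the authors' deposited table. STAT3 was at 0.21 ± 0.06 per the authors' deposited table, and after centring on the median of all rows it stood at −0.0020, a change of sign. The ligands BMP2 and BMP6 and the protease TMPRSS6, which dampens the pathway, have no row.

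Few other genes of iron uptake have a value. Of 14 listed genes of uptake and reduction beside the transferrin system and SLC11A2, 5 have a row (35.7%, against 43.6% of all genes tested), 4 lower and 1 higher (median −0.75). Over all rows 51.5% were higher, and with 5 genes the split is given as a count only. STEAP3, the endosomal reductase that readies iron for SLC11A2, had a log2 fold change of −1.03 ± 0.11 (adjusted p 4.59e-22) and its relative STEAP2 of −0.42 ± 0.13 per the authors' deposited table. LRP1, a receptor for heme bound to hemopexin, was at −0.75 ± 0.05 and HP, haptoglobin, which captures free hemoglobin, at −1.15 ± 0.24 per the authors' deposited table. HP has a close relative, HPR, that may share its reads. The siderophore binder LCN2 was the higher one, at 1.66 with an SE of 1.58 and a mean normalized count of only 11.3 per the authors' deposited table.

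Among the sensors of cellular iron 5 of 8 listed genes have no row and so no known value. A row exists for 37.5% of the list, against 43.6% of all genes tested. The 3 with a row were IREB2, iron regulatory protein of the iron-starved cell, at 0.30 ± 0.08, ACO1, its relative that doubles as a cytosolic aconitase, at −0.27 ± 0.10, and EPAS1, the hypoxia factor HIF-2α, at 0.17 ± 0.06 per the authors' deposited table. Centred on the median of all rows EPAS1 stood at −0.045, which turns the split from 2 higher and 1 lower to 1 higher and 2 lower. FBXL5, the iron-sensing ligase that degrades IREB2, has no row.

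Transcripts known for an iron-responsive element went both ways. Of 10 listed genes 6 have a row, where 43.6% of all genes tested were called. They were 4 higher and 2 lower (median 0.20), or 3 and 3 after centring. Of the chosen genes with the element in the 5′ UTR, FTH1 and FTL were higher and SLC40A1 was lower per the authors' deposited table. EPAS1, also on this list, was higher at 0.17 ± 0.06 and stood at −0.045 after centring. Of those known for the element in the 3′ UTR, TFRC has no value. SLC11A2, which had no match in the search above, was lower. TF, which is not on this list but had a match in a 3′ UTR, was lower too, at −0.71. The elements act on translation or decay, and translation is not measured by these libraries.

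Genes of heme synthesis went both ways. Of 15 listed genes 11 have a row (73.3%, against 43.6% of all genes tested), 6 higher and 5 lower (median 0.25). ALAS1, the rate-limiting enzyme in liver, was higher at 1.05 ± 0.09 (adjusted p 1.01e-27), as was SLC25A38, the mitochondrial glycine carrier that feeds it, at 0.72 ± 0.11 per the authors' deposited table. CLPX, which activates and turns over that enzyme, stood at 0.58 ± 0.08, UROD at 0.42 ± 0.07, SLC25A39 at 0.30 ± 0.06 and TMEM14C at 0.25 ± 0.08 per the authors' deposited table. ALAD at −0.71 ± 0.12 and UROS at −0.64 ± 0.12, enzymes that act between ALAS1 and UROD, were lower per the authors' deposited table. So were the later enzymes CPOX at −0.25 ± 0.10 and PPOX at −0.83 ± 0.20 per the authors' deposited table. FECH, which inserts the iron, has no row.

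Genes of heme breakdown and transport went both ways too. Of 12 listed genes 9 have a row (75%, against 43.6% of all genes tested). These were 6 higher and 3 lower, which is 66.7% higher where 51.5% of all rows were. Their median was 0.47 on the log2 scale of the authors' deposited table, against 0.21 over all rows. BACH1, the heme-responsive repressor of ferritin and heme oxygenase genes, was at 0.68 ± 0.10 (adjusted p 2.88e-11) and HMOX2, the constitutive heme oxygenase, at 0.47 ± 0.10 per the authors' deposited table. The heme exporter FLVCR1 stood at 0.49 ± 0.11, its relative FLVCR2 at 0.60 ± 0.28, and the heme-binding membrane proteins PGRMC1 and PGRMC2 at 0.38 ± 0.08 and 0.55 ± 0.08 per the authors' deposited table. SLC48A1, which moves heme out of lysosomes, was lower at −0.49 ± 0.15 and BLVRB, a biliverdin reductase, at −0.35 ± 0.15 per the authors' deposited table. HMOX1, the inducible heme oxygenase, has no row.

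Iron-sulfur cluster assembly had as many higher as lower genes. Of 31 listed genes 14 have a row (45.2%, against 43.6% of all genes tested), 7 in each direction (median 0.08), and 17 have none. HSPA9, the mitochondrial chaperone that hands clusters on, was at 0.85 ± 0.05, the scaffold ISCU at 0.55 ± 0.08 and ISCA1 at 0.55 ± 0.11 per the authors' deposited table. The mitochondrial iron importers SLC25A28 and SLC25A37 stood at 0.55 ± 0.15 and 0.49 ± 0.11, and GLRX3, which carries clusters in the cytosol, at 0.40 ± 0.07 per the authors' deposited table. NDOR1, an electron donor of the cytosolic route, was lower at −1.04 ± 0.14, HSCB, a co-chaperone, at −0.97 ± 0.29 and MMS19, which delivers clusters to DNA enzymes, at −0.47 ± 0.07 per the authors' deposited table. NUBPL at −0.44 ± 0.14, NFU1 at −0.35 ± 0.15 and the cysteine desulfurase NFS1 at −0.24 ± 0.10 were lower by less per the authors' deposited table.

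Copper carriers went both ways. Of 17 listed genes of copper transport 7 have a row (41.2%, against 43.6% of all genes tested). These were 3 higher and 4 lower (median −0.19), none of them past 2-fold. SLC31A1, the plasma membrane copper importer CTR1, was higher at 0.80 ± 0.06 (adjusted p 4.07e-38) per the authors' deposited table. ATP7B, the copper pump of hepatocytes that loads ceruloplasmin and is mutated in Wilson disease, was lower at −0.42 ± 0.07 (adjusted p 5.38e-08) per the authors' deposited table. CCS, which delivers copper to superoxide dismutase, stood at −0.84 ± 0.16 per the authors' deposited table, while SOD1 itself has no row. The factors that supply copper to cytochrome c oxidase split, with COX19 at 0.83 ± 0.11, SCO1 at 0.51 ± 0.11 and CMC1 at −0.75 ± 0.20 per the authors' deposited table. SLC25A3, a mitochondrial phosphate and copper carrier, was at −0.19 ± 0.05 per the authors' deposited table.

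Copper enzymes beside CP went both ways. Of 16 listed genes 6 have a row (37.5%, against 43.6% of all genes tested), 2 higher and 4 lower (median −0.52). Past 2-fold were 4 of the 6, where 31.4% of all rows were, and LOX and PAM were below it. LOXL4, a lysyl oxidase that cross-links matrix proteins, was lower at −1.85 ± 0.10 (adjusted p 9.16e-76) per the authors' deposited table, and its relatives LOX and LOXL3 at −0.24 ± 0.07 and −1.52 ± 0.999. LOXL3 had a mean normalized count of 15.6 per the authors' deposited table and is the least certain of these. PAM, which amidates peptide hormones, was at −0.80 ± 0.12 per the authors' deposited table. The amine oxidases AOC2 and AOC3 were higher at 2.44 ± 0.19 (adjusted p 1.16e-38) and 2.23 ± 0.22 (adjusted p 3.45e-24) per the authors' deposited table; they are similar genes that may share reads.

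**Figure D5:**
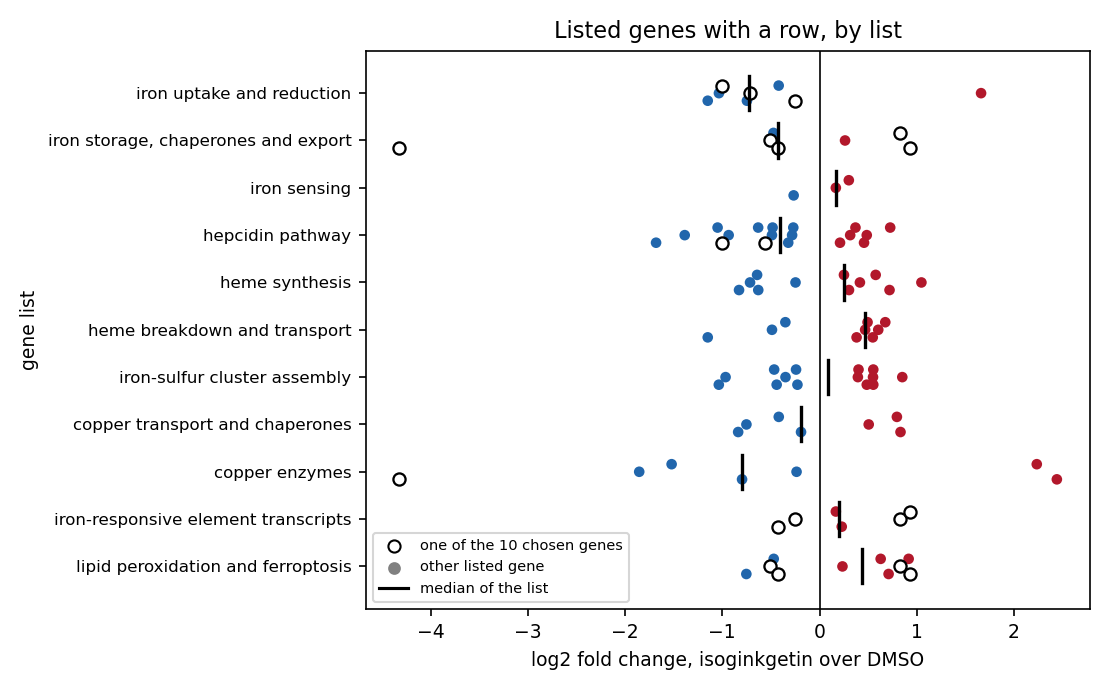
Log2 fold change (x axis, read as isoginkgetin over DMSO) of every listed gene with a row, by list (y axis); open circles are the 10 chosen genes where they have a row, filled circles the others (red higher, blue lower), and black bars the list medians. Iron-sulfur genes lie on both sides of 0, 7 in each direction, and CP at −4.33 lies apart in the 2 lists that hold it.

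Across the 11 lists, 79 of 160 genes beside the 10 chosen ones have a row (49.4%), where 43.6% of all genes tested were called, with 39 higher and 40 lower and a median of −0.19. Markers could be checked against the label only in part, since a gene without a row may be absent or may be expressed without a called change. Of 15 hepatocyte lineage genes 13 have a row, where 43.6% of all genes tested were called. Of these 13, 12 were lower and 1 higher, where 51.5% of all rows were higher. Their mean normalized counts lay between 442 and 157429 per the authors' deposited table. Of 8 fibroblast markers 1 has a row, at a mean of 60.2, and of 6 endothelial markers 2, at 14.2 and 129, per the authors' deposited table. Of 9 leukocyte markers 2 have one, LYZ at a mean normalized count of 15328 and NKG7 at 3.14, and of 5 keratinocyte markers KRT10 has one, at 455, per the authors' deposited table. TF, TFR2, HAMP and CP are hepatocyte genes themselves and fell together with that marker list; the part of a general fall of hepatocyte transcripts in their values was not tested.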

How the data were processed

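Polyadenylated RNA of HepG2 cells was sequenced in 2 libraries per group, and the titles gave each library's group and number. STAR 2.7.0 and featureCounts stand in the submitters' processing notes, as do hg19 and mm10, without their roles. Which annotation was counted, and how deep each library was, is not given in the sources used here. 1 file was deposited, the authors' table of their own comparison, with the column names of a DESeq2 results table per the file headers. Its mean normalized count is read as the authors' signal, averaged over the libraries after scaling. Fold changes and SEs were deposited on a log2 scale. Each p-value, raw and adjusted, stands as the authors deposited it, with a threshold of 0.05, and no new test was made. The number of genes tested, 20024, was recovered from adjusted p, rank and p; on 4 simulated tables the recovery was exact in 4.

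For the 9 genes, fold change divided by SE, without sign, was 0.928 to 0.997 of the normal deviate of its p-value, lowest for FTL. A ratio below 1 can come from shrinkage of the fold changes towards 0, and the size of any shrinkage was not estimated. Whether FTL would pass 2-fold without shrinkage is not known. The ratio was not taken for the other listed genes, among them the low-count LCN2 and LOXL3. Intervals are the fold change with the normal 95% range of its SE. The genes and the lists were chosen with earlier results of these data known, and the hairpin search, the implied group levels, the comparison of SEs by level and the overlaps with other genes were added after the values were seen. All 10 genes were named. From each list every gene with a row was named, or the 6 highest and 6 lowest where more than 12 had one, except 2 listed genes that are counted but not reported here. Transcripts, overlaps and lengths came from GENCODE 29 (GRCh38) and promoters from RefSeq (GRCh38.p14), which held windows for 7 of the 10 genes and none for CP, TFR2 and FTH1; neither build is that of the counting. Since no value per library is held, count models, a replicate block and leaving out libraries could not be run. Computations used Python 3.11.15, pandas 2.3.3 and scipy 1.17.1.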

Additional observations from a re-analysis of the deposited data

How the results depend on the processing

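The 9 calls among the 10 genes became 2 at a fold change of at least 2-fold (0 higher, 2 lower). With Bonferroni 6 of the 9 kept their call, among them 1 of the 2 higher genes. No direction among the 9 genes turned when fold changes were centred on the median of all rows. Of the 79 other listed genes (39 higher, 40 lower), 45 passed Bonferroni (25 higher, 20 lower), 12 were at least 2-fold (4 higher, 8 lower), and 25 of the 40 lower ones had an adjusted p under 0.001. Centring turned EPAS1 to −0.045 and STAT3 to −0.0020. No paired analysis was possible because the table holds no value per library; for the same reason leaving out libraries, edgeR and DESeq2 fits were not run. Depth per library is unknown, and genes outside the table have no value.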

Other observations

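Genes of lipid peroxidation, the process through which excess iron harms membranes, went both ways. Of 15 listed genes beside ferritin, NCOA4, SLC40A1 and TFRC, 6 have a row (40%, against 43.6% of all genes tested), 4 higher and 2 lower. ACSL4, which loads membranes with oxidisable fatty acids, was at −0.75 ± 0.06 (adjusted p 4.63e-33) and LPCAT3, which acts in the same route, at −0.47 ± 0.15 per the authors' deposited table. SLC3A2, the partner chain of the cystine importer, was at 0.92 ± 0.05 (adjusted p 3.77e-65) per the authors' deposited table. CISD2, an iron-sulfur protein, stood at 0.71 ± 0.13, the channel VDAC2 at 0.63 ± 0.06 and ACSL3 at 0.24 ± 0.06 per the authors' deposited table. GPX4, which repairs lipid peroxides, and SLC7A11, the cystine importer itself, have no row.

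Among the 85 genes over a mean normalized count of 20000, the 4 with the highest SE of the log2 fold change were SERPINA1 (0.29), FTL (0.23), FTH1 (0.14) and HMGA1 (0.12), and the fifth, RPS12, stood at 0.061 per the authors' deposited table. SERPINA1, HMGA1 and RPS12 were named after their values were seen.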
